A study of Mus musculus with 4 samples.

Results

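The nuclear genes for the subunits of the respiratory chain and of ATP synthase were followed in muscle stem (satellite) cells after a morpholino against Numb exon 6. Members were taken by symbol from the deposited gene tables: the Nduf, Sdh, Uqcr, Cyc1, Cox5 to Cox8 and Atp5 families, without symbols ending in -ps. This gave 94 of 55487 gene identifiers. Of them 84 are subunit genes, 9 are pseudogenes and 1 is a second identifier of Atp5o. The 84 subunit genes fall into complex I with 36, complex II with 4, complex III with 9, complex IV with 18 and complex V with 17. Cox4i1 and Cox4i2 carry a letter after the digit that the symbol pattern does not take, so they are given with the accessory genes, and Ndufa4 and Ndufa4l2 are counted with complex IV, where the encoded proteins sit.

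The RNA came from skeletal muscle of 2 Tg:Pax7-nGFP mice, a genotype that labels satellite cell nuclei with GFP and that both groups carried. Minced muscle of each mouse received either a vivo-morpholino that inhibits inclusion of Numb exon 6 or a control morpholino during digestion, before the cells were isolated. Numb is an endocytic adaptor and an inhibitor of Notch signalling. Each group held 2 libraries, 1 from each mouse, so both libraries of a mouse come from the same animal.

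Oxidative phosphorylation passes electrons from NADH and succinate through complexes I to IV to oxygen, pumps protons across the inner mitochondrial membrane at complexes I, III and IV, and lets complex V make ATP as they flow back. Most subunits are encoded in the nucleus, while a small core of complexes I, III, IV and V is encoded in mitochondrial DNA. Several subunits of complex IV exist as a form made in heart and skeletal muscle fibres and a form made in most other cells. Quiescent satellite cells are known for few mitochondria and low respiration, which increase when the cells activate.

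The deposited estimated counts summed to 318663258 and 230431665 in the Numb exon 6 libraries, and to 355411827 and 306485954 in the control libraries of mouse 1 and mouse 2. Numb itself, the targeted gene, stood at 39.7 and 40.2 TPM with the Numb exon 6 morpholino, against 27.2 and 37.0 TPM with the control, and counts per gene cannot show whether exon 6 was skipped. The 15 satellite cell markers summed to 12470 and 12530 TPM in the Numb exon 6 libraries, against 10670 and 11490 TPM in the controls. Of these 10 were higher and 1 lower in both mice. Sdc4 alone had 7328 and 7673 TPM in the Numb exon 6 libraries, against 6499 and 6991 TPM in the controls. The 15 myofibre markers summed to 179.9 and 187 TPM in the Numb exon 6 libraries, against 162 and 171 TPM in the controls. Of these 4 were higher and 4 lower in both mice. Leukocyte markers summed to 42.1 and 133 TPM in the Numb exon 6 libraries, against 31.3 and 36.4 TPM in the controls. Of these 9 of 12 were higher and 2 lower in both mice. In the Numb exon 6 library of mouse 2, S100a8 and S100a9 had 46.6 and 36.0 TPM of that sum. Erythroid markers summed to 928 and 1733 TPM in the Numb exon 6 libraries, against 538 and 1532 TPM in the controls, with 5 of 5 higher in both mice. Endothelial markers summed to 237 and 152 TPM in the Numb exon 6 libraries, against 158 and 154 TPM in the controls, and glial markers to 35.9 and 19.98 TPM, against 18.3 and 18.9 TPM in the controls, so the Numb exon 6 sample of mouse 1 was highest in both. Markers of fibro-adipogenic progenitors summed to 1775 and 1647 TPM in the Numb exon 6 libraries, against 1676 and 1570 TPM in the controls, and those of smooth muscle to 211 and 151 TPM, against 182 and 144 TPM in the controls. In both mice 3 of 8 endothelial, 4 of 7 glial, 4 of 8 fibro-adipogenic and 5 of 8 smooth muscle markers were higher, and no marker of the lists was at 0 in all 4 libraries. Over all tested genes, 28.1% were higher and 27.3% lower in both mice. Counts of AY036118 and CT010467.1, which resemble rRNA, made up 6.53% and 5.06% of all counts in the Numb exon 6 libraries, against 8.95% and 5.00% in the controls, so the control library of mouse 1 was highest. The part of these cells in the values that follow was not tested, and in bulk RNA fewer cells of a type and less RNA per cell cannot be told apart.

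Subunit genes of ATP synthase and of complex IV were the most abundant of the nuclear oxidative phosphorylation genes. Levels are given in TPM, a unit that allows for length, so genes can be set side by side. The mean level of the middle gene was 156.5 TPM in complex IV without its tissue-restricted and hypoxia-induced paralogues. It was 122 TPM in complex V, 88.9 TPM in complex III, 82.9 TPM in complex II and 44.7 TPM in complex I. Together the 84 genes took 0.850% and 0.829% of all TPM in the Numb exon 6 libraries of mouse 1 and mouse 2, and 0.834% and 0.859% in the control libraries. The order of the groups was opposite in the 2 mice.

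Atp5b, the catalytic beta subunit of ATP synthase (GRCm38 chromosome 10, 128083273 to 128090391, plus strand), was the highest of all, with 1094 and 1008 TPM in the Numb exon 6 libraries of mouse 1 and mouse 2 and 1028 and 1077 TPM in the controls. The groups overlapped. Among the members, Cox8a and Cox6a1, small subunits of complex IV, followed with means of 399.8 and 303 TPM together with Atp5a1, the alpha subunit of ATP synthase, with 367 TPM. Cox4i1 of complex IV, which the symbol pattern leaves out, lay above these. It had 485 and 575 TPM in the Numb exon 6 libraries and 478 and 572 TPM in the controls. Within complex I, Ndufb9 and Ndufa7, supernumerary subunits outside the catalytic core, were highest with means of 164 and 132 TPM, and Ndufa3 and Ndufc1, supernumerary subunits of the membrane arm, lowest with 15.4 and 23.8 TPM. Sdha, the flavin-bearing catalytic subunit, led complex II with a mean of 118 TPM, and Sdhc, a membrane anchor of the same complex, had 20.9 TPM. In complex III the extremes were Uqcrh, the hinge protein, with 249.8 TPM, and Uqcrc2, a core protein, with 71.3 TPM, and in complex V the lowest was Atp5k, a subunit of the membrane domain, with 16.2 TPM.

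Levels varied little between libraries. Of 77 subunit genes above 10 TPM in every library, 45 had a highest library under 1.2 times the lowest, and the median ratio was 1.17. The ratio exceeded 1.5 in 5 genes: Cox7a2l with 2.36, Cox6c with 1.61, Atp5k with 1.60, Ndufa5 with 1.58 and Ndufa6 with 1.52.

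**Figure D1:**
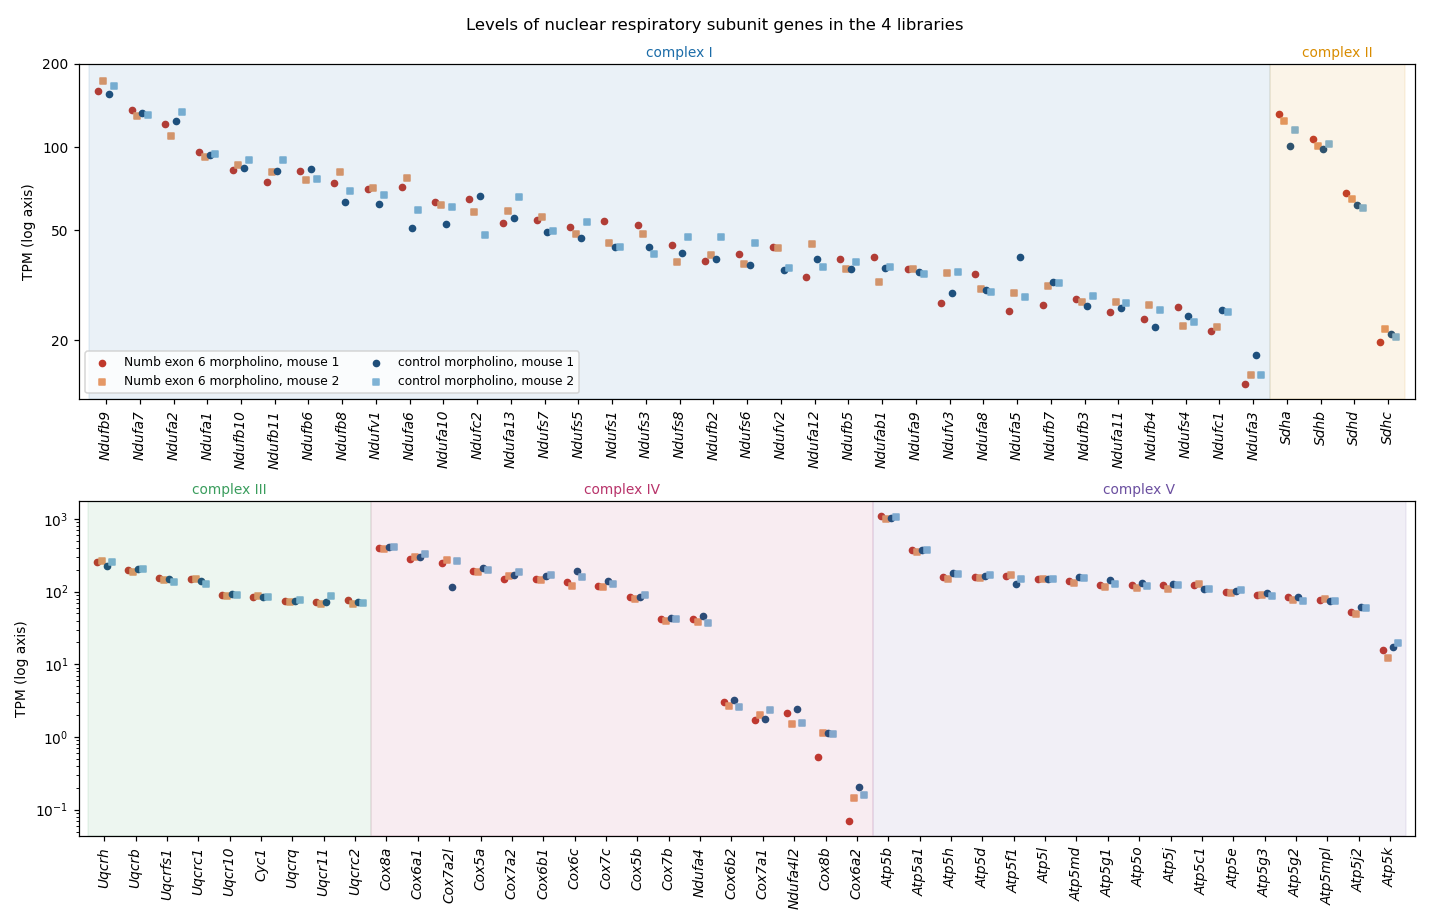
TPM (log axis) of subunit genes above 0, by complex and ordered by mean level, with 4 points per gene: the Numb exon 6 libraries of mouse 1 and mouse 2, then the control libraries. The 4 points of most genes lie close together, Atp5b is highest at 1008 to 1094 TPM, and the control library of mouse 1 stands low for Cox7a2l at 116 TPM.

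The cells carried the ubiquitous and almost none of the muscle forms of complex IV subunits. Cox6a2, the heart and muscle form of subunit VIa, had 0.070 and 0.146 TPM in the Numb exon 6 libraries of mouse 1 and mouse 2 and 0.205 and 0.161 TPM in the controls. Its ubiquitous partner Cox6a1 had 285 and 298 TPM in the Numb exon 6 libraries, against 302 and 328 TPM in the controls. Cox6a1 was thus about 2084 times as high as Cox6a2 in mean TPM, and in both groups Cox6a2 made less than 0.1% of the pair. Cox7a1, the muscle form of subunit VIIa, had 1.69 and 1.98 TPM in the Numb exon 6 libraries, against 1.77 and 2.31 TPM in the controls, which was 1.13% and 1.19% of the sum with Cox7a2 in the Numb exon 6 libraries, against 1.02% and 1.23% in the controls. Cox8b, the muscle form of subunit VIII, had 0.537 and 1.13 TPM in the Numb exon 6 libraries, against 1.15 and 1.11 TPM in the controls, so that the Numb exon 6 library of mouse 1 stood alone as low, and its share with Cox8a was 0.135% and 0.287% in the Numb exon 6 libraries, against 0.281% and 0.274% in the controls. The Cox6a2 and Cox8b values lie close to 0, and no share of a muscle form separated the morpholinos in the same direction in both mice.

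Ndufa4l2, a paralogue of Ndufa4 known to be induced by hypoxia, made 4.89% and 3.82% of the pair in the Numb exon 6 libraries, against 4.95% and 4.11% in the controls. Its share was lower in mouse 2 than in mouse 1 with either morpholino. Of the testis forms, Cox6b2 made 1.97% and 1.81% of the sum with Cox6b1 in the Numb exon 6 libraries, against 1.94% and 1.51% in the controls, while Cox7b2 and Cox8c were listed at 0 in all 4 libraries. The c-ring of ATP synthase is built from 1 protein encoded by 3 genes. Atp5g1 made 41.7% and 41.4% of their summed TPM with the Numb exon 6 morpholino and 44.6% and 44.3% with the control, so it was lower in both mice and the groups did not overlap. Atp5g2 made 28.3% and 27.0% with Numb exon 6, against 25.8% and 25.6% with the control, and Atp5g3 made 30.05% and 31.57% with Numb exon 6, against 29.54% and 30.03% with the control, both higher in each mouse.

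**Figure D2:**
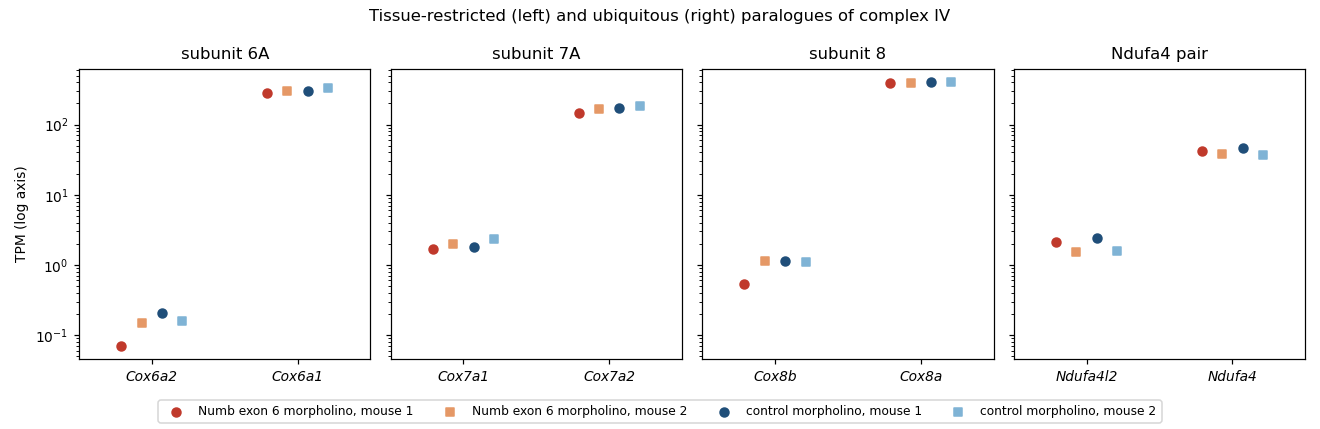
TPM (log axis) of muscle forms of complex IV subunits and of hypoxia-induced Ndufa4l2, each left of its ubiquitous partner. Each library has 1 point, with the Numb exon 6 libraries left of the control libraries. The ubiquitous form exceeds its partner in every library, by 21.3 to 2084 times in mean TPM.

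The promoters of these muscle and ubiquitous pairs are printed below, except that of Cox6a2, for which no window was available. They are shown because the ubiquitous and muscle forms differ widely in level, and they were taken from RefSeq on build GRCm38.p6, from 250 bases before to 50 after the annotated start, with the build matching that of the deposited tables. Capitals mark the motifs searched on both strands: GCGCA and GCGC with 1 base between them for NRF1, CCGGAAG for ETS factors, AANATGGCG for YY1, CAGCTG for E-box factors, CTA and TAG with 4 bases between them for MEF2 and TCAAGGTCA for ERR.
Cox6a1, chr5:115348909-115349208, minus strand: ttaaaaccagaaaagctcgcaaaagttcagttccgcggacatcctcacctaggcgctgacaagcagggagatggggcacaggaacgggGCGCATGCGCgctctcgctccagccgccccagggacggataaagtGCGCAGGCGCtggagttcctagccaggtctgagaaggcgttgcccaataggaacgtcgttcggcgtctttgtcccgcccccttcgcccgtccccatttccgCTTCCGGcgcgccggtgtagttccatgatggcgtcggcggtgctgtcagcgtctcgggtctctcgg
Cox7a2, chr9:79759804-79760103, minus strand: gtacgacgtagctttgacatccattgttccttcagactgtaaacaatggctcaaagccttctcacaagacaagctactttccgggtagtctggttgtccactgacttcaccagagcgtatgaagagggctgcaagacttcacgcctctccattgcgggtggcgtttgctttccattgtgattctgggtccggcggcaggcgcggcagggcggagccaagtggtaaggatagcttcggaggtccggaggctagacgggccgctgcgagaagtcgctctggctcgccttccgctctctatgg
Cox7a1, chr7:30183921-30184220, plus strand: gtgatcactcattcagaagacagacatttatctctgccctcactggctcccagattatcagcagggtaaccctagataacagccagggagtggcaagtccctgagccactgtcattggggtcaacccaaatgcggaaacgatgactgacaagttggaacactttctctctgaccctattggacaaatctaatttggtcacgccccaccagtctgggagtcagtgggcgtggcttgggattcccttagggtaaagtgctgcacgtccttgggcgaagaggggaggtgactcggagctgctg
Cox8a, chr19:7217567-7217866, minus strand: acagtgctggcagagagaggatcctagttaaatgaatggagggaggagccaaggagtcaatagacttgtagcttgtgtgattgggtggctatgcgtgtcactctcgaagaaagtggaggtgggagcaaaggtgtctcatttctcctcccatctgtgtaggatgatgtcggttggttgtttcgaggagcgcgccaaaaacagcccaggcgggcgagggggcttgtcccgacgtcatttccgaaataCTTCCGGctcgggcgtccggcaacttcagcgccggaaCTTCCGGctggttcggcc
Cox8b, chr7:140900397-140900696, minus strand: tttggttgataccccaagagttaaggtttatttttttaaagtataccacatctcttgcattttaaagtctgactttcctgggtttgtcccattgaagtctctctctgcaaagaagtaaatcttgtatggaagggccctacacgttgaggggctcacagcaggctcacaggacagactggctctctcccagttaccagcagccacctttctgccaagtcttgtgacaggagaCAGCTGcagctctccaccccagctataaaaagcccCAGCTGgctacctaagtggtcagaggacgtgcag
Cox6a1 holds NRF1 and ETS letters and Cox8a holds ETS letters, while Cox8b holds E-box letters and Cox7a1 and Cox7a2 hold none of these. The windows of Cox6a1, Cox7a2 and Cox8a contain 32, 20 and 19 CpG dinucleotides, and those of Cox7a1 and Cox8b contain 7 and 2. A match is a description of letters and no evidence of binding.

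Of the 84 subunit genes, 68 matched a RefSeq promoter, some with more than 1 start, which gave 73 windows. The NRF1 letters were in 24.7% of them and in 4.60% of all 32851 windows, the ETS letters in 23.3% and 8.86%, and the YY1 letters in 13.7% and 2.38%. The ERR letters were in 2.74% and 0.423%, that is in 2 windows. The E-box letters were in 8.22% against 16.3% of all windows, the MEF2 letters in 1.37% against 3.69%, and TATAAA in 12.3% against 13.6%. The median window had 19 CpG dinucleotides against 7 over all windows. A window may hold more than 1 of the motifs, and the windows of a gene with several starts may overlap.

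No nuclear oxidative phosphorylation gene passed the test between the morpholinos. The comparison asked which transcripts differ when inclusion of Numb exon 6 is inhibited in cells isolated from the same animal. Of the 94 members, 88 passed the filter on low counts and were tested among 27551 genes, and 82 of the 88 were subunit genes. The edgeR quasi-likelihood test called 0 of the 88 after Benjamini-Hochberg adjustment over all genes, as it did 0% of all genes, with the smallest adjusted p of a member at 0.999. With the mouse as a block it called 0 as well (smallest adjusted p = 0.796), and so did DESeq2, without and with the block (smallest adjusted p = 0.761 and 0.0935), which called 0.236% and 0.577% of all genes. One member, Cox6c, had an unadjusted edgeR p under 0.05, where 4.16% of all genes did, and 2 members, Cox6c and Ndufa6, did with the block, where 6.09% of all genes did.

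The signs of the small differences were uneven. Of the 82 tested subunit genes, 44 were lower and 18 higher with the Numb exon 6 morpholino in both mice, where 27.3% of all tested genes were lower and 28.1% higher. The groups did not overlap in 34 genes that were lower and 10 that were higher, where 17.1% and 17.4% of all genes did so. Where the mean log2 CPM was at least 3, these were 31 and 10 of 74 subunit genes, against backgrounds of 16.5% and 17.1%. The median log2 fold change of the 88 members was -0.08, against 0.005 over all genes, with medians of -0.09 in mouse 1 and -0.06 in mouse 2. It was -0.02 on log2(TPM + 1), where the median of all genes was 0.02, and -0.13 without the control library of mouse 2. The genes share a pathway and are not independent, so these counts are a description without a test.

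**Figure D3:**
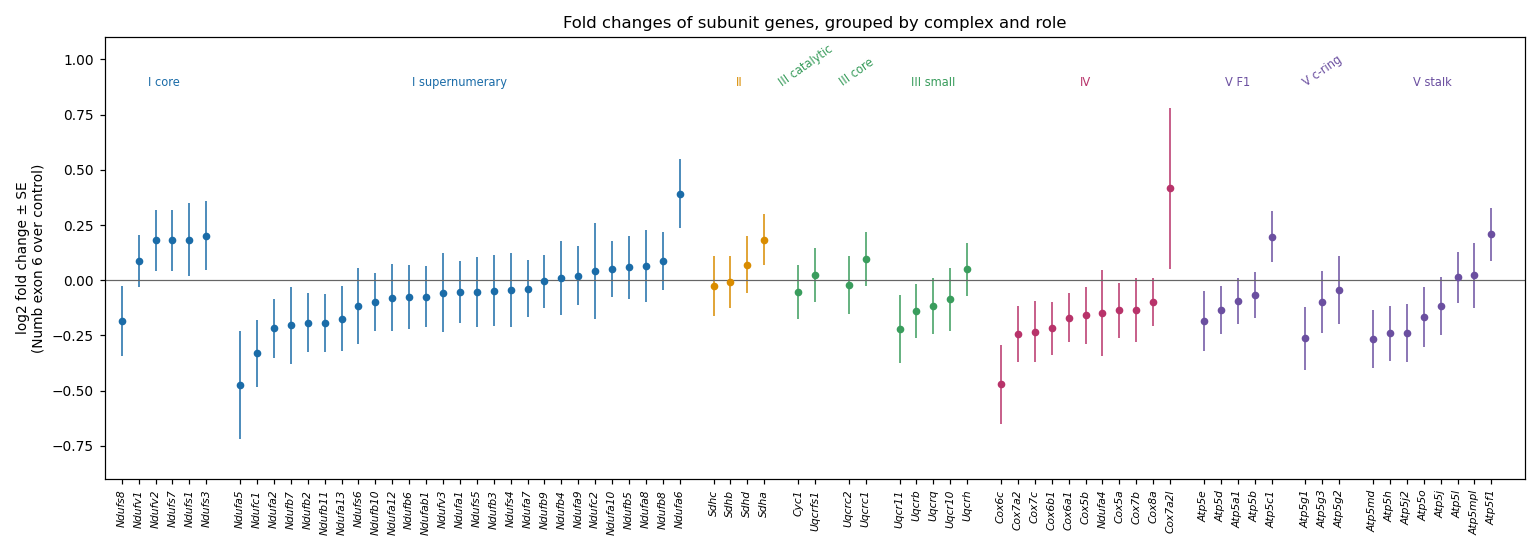
Log2 fold change, Numb exon 6 over control, of subunit genes whose mean log2 CPM was at least 3, grouped by complex and role and ordered by value (points, with bars of 1 SE). Among complex IV genes Cox7a2l alone lies above 0, and the core subunits of complex I that are shown lie above 0 except Ndufs8.

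In complex I the catalytic core and the supernumerary subunits lay on different sides of 0. Of the 7 core flavoprotein and iron-sulphur subunits, 6 were higher with the Numb exon 6 morpholino in both mice and Ndufs8 was lower. The log2 fold changes had a median of 0.18. Of the 29 supernumerary subunits, 6 were higher and 15 lower in both mice, the median being -0.06 (-0.01 on log2(TPM + 1)). Over all tested genes, 28.1% were higher and 27.3% lower in both mice. The difference between both kinds of subunit was not tested.

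Ndufv1, which binds NADH and flavin, had 70.3 and 70.9 TPM with the Numb exon 6 morpholino, against 62.4 and 66.9 TPM with the control. Its neighbour Ndufv2, which carries an iron-sulphur cluster, had 43.5 and 43.2 TPM with the Numb exon 6 morpholino, against 35.8 and 36.6 TPM with the control. Both were higher in each mouse without overlap, with log2 fold changes of 0.09 ± 0.12 and 0.18 ± 0.14 (SE, 2 libraries a group; edgeR adjusted p = 0.999 for each). Ndufs3 and Ndufs7, core subunits of the arm that leads electrons to ubiquinone, had 0.20 ± 0.15 and 0.18 ± 0.14. For Ndufs3 it was 0.10 if the mouse 2 control was left out and 0.13 if the mouse 1 Numb exon 6 library was. Ndufs1, the large iron-sulphur subunit, had 54.2 and 45.0 TPM with the Numb exon 6 morpholino, against 43.6 and 43.5 TPM with the control. Only the Numb exon 6 library of mouse 1 stood out there, and without it the log2 fold change of 0.18 ± 0.16 was -0.01. Ndufs8, an iron-sulphur subunit of the same arm, had 44.3 and 38.5 TPM with the Numb exon 6 morpholino, against 41.6 and 47.4 TPM with the control, and a log2 fold change of -0.18 ± 0.16; its TPM values overlapped, while its CPM values did not.

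Among the supernumerary subunits Ndufa6, a member of the LYR family at the joint of the arms (chromosome 15, 82350140 to 82354322, minus strand), had 71.7 and 77.4 TPM with the Numb exon 6 morpholino and 50.9 and 59.1 TPM with the control. Both Numb exon 6 libraries lay above both controls. Its log2 fold change was 0.39 ± 0.16 (SE, 2 libraries a group; edgeR unadjusted p = 0.051 and adjusted p = 0.999), and 0.028 was the unadjusted p with the mouse as a block. Ndufc1 had 21.7 and 22.4 TPM in the Numb exon 6 libraries, against 25.7 and 25.4 TPM in the controls, below the controls in both mice, with -0.33 ± 0.15. Ndufa5, a subunit of the arm that reaches into the matrix, had 25.5 and 29.6 TPM in the Numb exon 6 libraries, against 40.1 and 28.7 TPM in the controls. The control library of mouse 1, highest in rRNA-like share, alone was high, so that the log2 fold change of Ndufa5 of -0.47 ± 0.25 was -0.13 without that library. A part of the rRNA-like share in this value was not tested. Ndufa7 and Ndufb9, the abundant ones, had -0.04 ± 0.13 and -0.004 ± 0.121.

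Complex II, which oxidises succinate and is also an enzyme of the citric acid cycle, was the complex with a median above 0 on both scales, 0.03 on the count scale and 0.09 on log2(TPM + 1). On these scales the median of all genes whose mean log2 CPM was at least 3 was 0.006 and 0.05. Sdha had 131 and 124 TPM in the Numb exon 6 libraries and 101 and 115 TPM in the controls. The groups did not overlap, and its log2 fold change was 0.18 ± 0.11 (SE, 2 libraries a group; edgeR adjusted p = 0.999). Leaving out the mouse 1 control gave 0.11. Sdhb, which carries the iron-sulphur clusters, Sdhc and Sdhd, the membrane anchors, had log2 fold changes of -0.01 ± 0.12, -0.03 ± 0.14 and 0.07 ± 0.13. Without the control library of mouse 2 the median of the 4 genes was 0.001.

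In complex III no gene passed the test, and 4 of the 5 small subunits had negative log2 fold changes. Uqcrb, the ubiquinone-binding protein, had 199 and 184 TPM in the Numb exon 6 libraries and 202 and 204 TPM in the controls, and Uqcr11, a small membrane subunit, 71.8 and 66.5 TPM in the Numb exon 6 libraries, against 72.2 and 86.2 TPM in the controls. Both were lower in each mouse, most in mouse 2 for Uqcr11, with -0.14 ± 0.12 and -0.22 ± 0.16. Of the 5 small subunits 4 were lower in both mice without overlap, where 17.1% of all tested genes and 34.2% of expressed genes under 1000 bases lay so, and the median of the 5 was -0.12 (-0.04 on log2(TPM + 1)). Uqcrh had 254 and 263 TPM in the Numb exon 6 libraries, against 225 and 257 TPM in the controls and a log2 fold change of 0.05 ± 0.12. On CPM it was higher in mouse 1 and nearly equal in mouse 2, with log2 ratios of 0.10 and 9.1e-05. Cyc1, the haem-bearing cytochrome, and Uqcrfs1, the Rieske iron-sulphur protein, had -0.05 ± 0.12 and 0.02 ± 0.12, and the core proteins Uqcrc1 and Uqcrc2 had 0.10 ± 0.12 and -0.02 ± 0.13. The log2 ratios of these 4 differed in sign between the mice, and the median of the complex was -0.05 on the count scale and 0.02 on log2(TPM + 1). Leaving out the mouse 2 control made it -0.13, leaving out the mouse 1 Numb exon 6 library -0.11, and leaving out the mouse 1 control -0.03.

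The genes of complex IV were the most alike in sign. Of its 16 tested genes 13 were lower in both mice, and in 10 the groups did not overlap. That is 62.5% of the 16, where 17.1% of all tested genes and 34.2% of expressed genes under 1000 bases lay so. The middle log2 fold change was -0.17 (-0.10 on log2(TPM + 1)). All 6 ubiquitous forms with a tissue-restricted or hypoxia-induced partner were lower in both mice, the median being -0.16. Of all tested genes 27.3% were lower in both mice, and of expressed genes under 1000 bases 47.6%. For Ndufa4 the log2 ratio in mouse 2 was -0.03, and its TPM was higher there. Cox6c, a small subunit of the membrane domain (chromosome 15, 35925886 to 35938246, minus strand), had 137 and 121 TPM in the Numb exon 6 libraries of mouse 1 and mouse 2 and 195 and 158 TPM in the controls. Both Numb exon 6 libraries lay under both controls, and mouse 2 lay under mouse 1 with either morpholino. Its log2 fold change was -0.47 ± 0.18 (SE, 2 libraries a group; edgeR unadjusted p = 0.045 and adjusted p = 0.999), with log2 ratios of -0.50 and -0.44 in the mice. With the mouse as a block the SE was 0.10 and the p 0.0061 (edgeR adjusted p = 0.796), and DESeq2 with the block gave an adjusted p of 0.0935. Leaving out any library kept it between -0.64 and -0.30, the smallest being that without the control library of mouse 1.

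Cox7a2 had 148 and 164 TPM in the Numb exon 6 libraries, against 172 and 186 TPM in the controls, lower in both mice without overlap, with -0.24 ± 0.13. Cox6a1, Cox8a, Cox5a and Cox5b, the last pair being subunits on the matrix side, had log2 fold changes of -0.17 ± 0.11, -0.10 ± 0.11, -0.14 ± 0.12 and -0.16 ± 0.13. Ndufa4 had 41.7 and 37.8 TPM in the Numb exon 6 libraries, against 46.2 and 36.9 TPM in the controls, which overlapped, with -0.15 ± 0.19. The low muscle forms had wide errors, with -0.84 ± 1.13 for Cox6a2, -0.20 ± 0.45 for Cox7a1 and -0.49 ± 0.70 for Cox8b, and Ndufa4l2 had -0.18 ± 0.42.

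Cox7a2l, a factor that joins complexes III and IV into supercomplexes (chromosome 17, 83501918 to 83517330, minus strand), went the other way. It had 249.7 and 274 TPM in the Numb exon 6 libraries of mouse 1 and mouse 2 and 116 and 264 TPM in the controls. The control library of mouse 1, which also had the highest rRNA-like share, alone was low, and the other 3 lay close together. The part of that share was not tested. A fit without the rRNA-like and mitochondrial genes gave 0.415, but it removes only their own counts, so it cannot test that share. The log2 fold change was 0.42 ± 0.36 (SE, 2 libraries a group; edgeR adjusted p = 0.999), and the log2 ratio was 1.02 within mouse 1 and 0.02 within mouse 2. Without that library it was -0.04. Under the control morpholino the log2 ratio of mouse 2 over mouse 1 was 1.13, and under the Numb exon 6 morpholino 0.13.

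**Figure D4:**
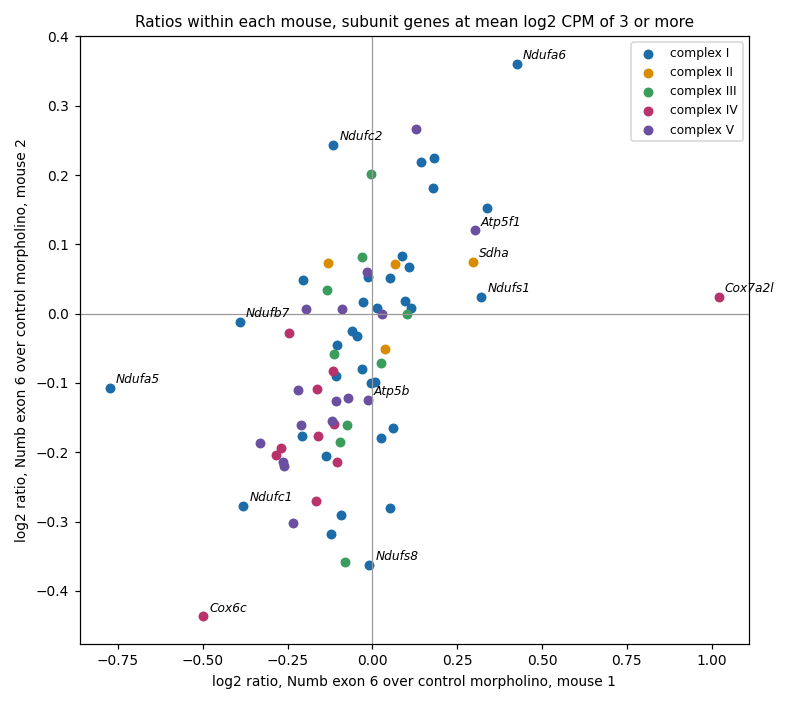
Log2 ratio of Numb exon 6 over control in mouse 1 (horizontal) and in mouse 2 (vertical) for the subunit genes whose mean log2 CPM was at least 3, coloured by complex. Cox6c at -0.50 and -0.44 and Ndufa6 at 0.43 and 0.36 lie far from 0 in both mice, and Cox7a2l at 1.02 and 0.02 in mouse 1 alone.

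In complex V 11 of 17 genes were lower in both mice and 2, Atp5c1 and Atp5f1, were higher. These 11 are 64.7% of the complex. The lower share was 27.3% among all tested genes and 47.6% among expressed genes under 1000 bases. The higher share was 28.1% and 21.4%. The log2 fold changes of the 17 genes had a median of -0.12 (-0.08 on log2(TPM + 1)). The median of -0.12 became -0.07 without the control library of mouse 1 and -0.18 without that of mouse 2. Atp5c1, the gamma subunit that turns in the central stalk, had 122 and 127 TPM in the Numb exon 6 libraries and 107 and 107 TPM in the controls. Atp5f1, a subunit of the peripheral stalk, had 165 and 167 TPM in the Numb exon 6 libraries, against 128 and 148 TPM in the controls. Neither gene's groups overlapped, with log2 fold changes of 0.20 ± 0.12 and 0.21 ± 0.12 (SE, 2 libraries a group; edgeR adjusted p = 0.999). For Atp5f1 it was 0.12 without the control library of mouse 1. Atp5f1 shares 337 exonic bases with Wdr77 on the opposite strand, which stood at 77.8 and 59.0 TPM in the Numb exon 6 libraries, against 46.4 and 33.8 TPM in the controls, and its share in the Atp5f1 count was not tested.

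Atp5g1 had 123 and 117 TPM in the Numb exon 6 libraries, against 145 and 128 TPM in the controls, lower in both mice, with -0.26 ± 0.14, and Atp5g2 and Atp5g3 had -0.04 ± 0.15 and -0.10 ± 0.14. Atp5md, a small subunit of the membrane domain, had 139 and 132 TPM in the Numb exon 6 libraries, against 160 and 152 TPM in the controls, with both Numb exon 6 libraries under both controls and a log2 fold change of -0.27 ± 0.13. Atp5j2, a subunit of the membrane domain, had -0.24 ± 0.13, and Atp5k had 15.8 and 12.3 TPM in the Numb exon 6 libraries, against 17.0 and 19.6 TPM in the controls and -0.41 ± 0.26. Without 1 library Atp5g1 was at its smallest with -0.14, without the control library of mouse 1, and Atp5k with -0.23, without the Numb exon 6 library of mouse 2. The catalytic pair was near 0, with -0.10 ± 0.10 for Atp5a1 and -0.07 ± 0.10 for Atp5b.

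Short transcripts carried the lower values. The length implied by the ratio of counts to TPM was a median of 829 bases in the 74 subunit genes whose mean log2 CPM was at least 3 and of 2741 bases in all 8469 such genes. Among genes under 1000 bases, 46 subunit genes had a median log2 fold change of -0.11 with 63.0% lower in both mice, and all 664 genes of that length had -0.06 with 47.6%. The groups did not overlap downward in 54.3% of these subunit genes and in 34.2% of all genes of that length. From 1000 to 2000 bases, 24 subunit genes had a median of 0.007 and all 1918 genes 0.003, and above 2000 bases 4 subunit genes had 0.08 and all 5887 genes 0.01. Across the 74 subunit genes the log2 fold change and log2 length were correlated with Pearson's r of 0.34 and Spearman's rho of 0.39, against 0.07 and 0.05 across all 8469, and genes of a library share its depth and amplification. The part of length in the lower values of complexes IV and V was not tested.

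**Figure D5:**
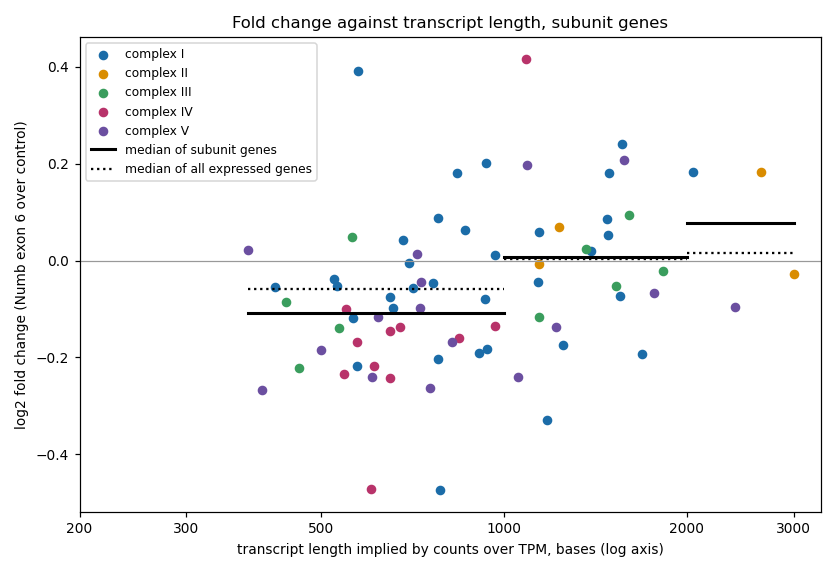
Log2 fold change, Numb exon 6 over control, against transcript length implied by counts over TPM (bases, log axis) for 74 subunit genes (points coloured by complex), with medians of subunit genes (solid) and of all expressed genes (dotted) in 3 length ranges. Medians under 1000 bases are -0.11 and -0.06.

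Many subunit genes can share reads with copies. Of the 84, 24 had 47 annotated copies of at least 95% identity, mostly processed pseudogenes, and in 11 the copies summed to over 10% of the gene's TPM. The highest in TPM were Gm12338 of Cox7c, with 65.5 and 68.6 TPM in the Numb exon 6 libraries and 82.0 and 72.2 TPM in the controls, and Gm10039 of Atp5g1, with 53.4 and 51.7 TPM in the Numb exon 6 libraries, against 62.8 and 66.2 TPM in the controls. Both followed their parent genes in being lower. Gm15920, at 115% of the TPM of Ndufa12, went the opposite way to that gene in each mouse. It had 46.6 and 36.9 TPM in the Numb exon 6 libraries, against 42.5 and 52.3 TPM in the controls. Ndufa12 had 33.9 and 44.6 TPM in the Numb exon 6 libraries, against 39.5 and 36.8 TPM in the controls. Its log2 fold change was -0.08 alone and -0.13 pooled, and a sharing of reads was not tested. Cox7c itself had -0.23 ± 0.14. Like the copies, Cox7c and Ndufa12 were chosen after their values were seen. Pooling each gene with its copies moved no log2 fold change by more than 0.0521 and turned the sign of 1, Atp5l, a subunit of the membrane domain, with 0.01 alone and -0.01 pooled, and 0 members were called. The exons of 30 subunit genes overlap another gene, so their counts are uncertain to that extent.

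Other lists of the pathway had median log2 fold changes between -0.02 for assembly factors and 0.08 for regulators, and edgeR called 0 of their members. An unadjusted edgeR p under 0.05 was found for 1 carrier and 2 regulators, where 4.16% of all tested genes had one. DESeq2 called 1 gene, Pprc1, where it called 0.236% of all tested genes. The background for this and the following lists was 28.1% of all tested genes higher and 27.3% lower in both mice. Of 52 tested assembly factors 13 were higher and 14 lower in both mice; the log2 fold changes had a median of -0.02 (0.01 on log2(TPM + 1)). Tmem126b, an assembly factor of complex I, had 0.64 ± 0.32 and Pet117, one of complex IV, -1.20 ± 0.58 (SE), both at low levels. Of 19 electron carriers and accessory genes 8 were higher and 7 lower, with a median of 0.004. Etfdh, which feeds electrons from fatty acid oxidation to ubiquinone, had 33.1 and 36.6 TPM in the Numb exon 6 libraries and 23.9 and 27.99 TPM in the controls, with 0.39 ± 0.13 (SE, 2 libraries a group; edgeR adjusted p = 0.999). Cox4i1, the large nuclear subunit of complex IV, had 485 and 575 TPM in the Numb exon 6 libraries, against 478 and 572 TPM in the controls, with mouse 2 above mouse 1 under either morpholino and a log2 fold change of -0.04 ± 0.14. Slc25a5, an ADP/ATP carrier, had 1151 and 1113 TPM in the Numb exon 6 libraries, against 1226 and 1274 TPM in the controls and -0.20 ± 0.10. Slc25a4, another ADP/ATP carrier, was higher in both mice. It had 133 and 142 TPM in the Numb exon 6 libraries, against 112 and 130 TPM in the controls and 0.13 ± 0.12.

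The 13 protein-coding genes of mitochondrial DNA had a median of 0.06, with 3 higher and 1 lower in both mice. Medians were -0.02 in mouse 1 and 0.17 in mouse 2. mt-Co1, a catalytic subunit of complex IV, had 11580 and 12180 TPM in the Numb exon 6 libraries and 10230 and 10640 TPM in the controls, with 0.13 ± 0.09. All genes with a symbol starting in mt-, which are more than these 13, took 4.11% and 4.47% of the counts in the Numb exon 6 libraries. They took 4.35% and 3.98% in the controls, so mouse 1 and mouse 2 differed in sign. The share of the 13 protein-coding genes alone is not given. The 17 citric acid cycle enzymes had a median of 0.006, with 5 higher and 5 lower in both mice. Idh2, a mitochondrial isocitrate dehydrogenase, had 57.1 and 53.4 TPM in the Numb exon 6 libraries, against 45.4 and 44.4 TPM in the controls and 0.25 ± 0.13.

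Of 19 regulators of mitochondrial genes, 5 were higher and 4 lower in both mice, the median being 0.08, with 0.10 in mouse 1 and -0.10 in mouse 2. Pprc1, a coactivator of the PGC-1 family that acts with NRF1, had 63.9 and 66.1 TPM in the Numb exon 6 libraries of mouse 1 and mouse 2 and 97.9 and 97.8 TPM in the controls. The groups lay far apart. Its log2 fold change was -0.87 ± 0.11 (SE, 2 libraries a group; edgeR unadjusted p = 4.6e-04 and adjusted p = 0.999), while DESeq2 called it (adjusted p = 6.55e-05, and 1.43e-08 with the block). Nrf1, whose letters stand in many of the promoters, had 33.7 and 31.8 TPM in the Numb exon 6 libraries, against 32.8 and 34.8 TPM in the controls and -0.07 ± 0.13. Esrra, an orphan receptor that regulates respiratory genes, had 1.58 and 1.42 TPM in the Numb exon 6 libraries, against 0.962 and 0.771 TPM in the controls and 0.84 ± 0.31, and DESeq2 did not call it.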

How the data were processed

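SMART-Seq2 cDNA, which does not keep the strand, was prepared from 5 ng of satellite cell RNA, per the labels' protocols. The authors' deposited tables hold estimated counts and TPM per gene. The submitters' processing notes name HISAT2 2.1.0, StringTie 1.3.6 and GRCm38, and no annotation release is given in the sources used here. As deposited, the estimated counts are whole numbers, and StringTie estimates counts from coverage, so totals are not fragments and no counting interval is given. As deposited, TPM allows for transcript length and library size.

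Members, lists and tests were chosen with earlier results of these data known. The main test was edgeR 4.0.16 in R 4.3.3 (quasi-likelihood, robust, TMM factors, default expression filter by group, no block, Benjamini-Hochberg over all genes, threshold 0.05); the SE comes from its statistic. Within a mouse, log2 ratios subtract log2 CPM values (prior count 2), and the counts per direction and of groups that do not overlap use CPM. Alternatives were the mouse as a block, DESeq2 1.42.0, limma 3.58.1 on log2(TPM + 1) and log2(TPM + 0.1), other size factors and filters, removal of mitochondrial and rRNA-like genes, pooling of near-identical copies (at least 95% identity over 80% of a copy of at least 150 bases, by blastn on GENCODE vM21 transcripts) and removal of each library. The edgeR and DESeq2 fits were also run on simulated counts, whose outcome is not reported here. The simulation held no mouse effect, and its planted changes were larger than any log2 fold change of the members. It therefore cannot check the pairing by mouse or the power for small differences.

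The libraries of a number come from the same mouse, so the mouse pairs them. Their deviations from group means had a correlation of 0.40 over 8469 genes whose mean log2 CPM was at least 3, and of 0.06 over all. The same 2 animals stand in both groups, so p-values measure the spread of these libraries. The main fit, without a block, leaves the difference between the mice in that spread.

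Named members were the core subunits (1 member is not reported here), isoform pairs and c-ring genes, the 2 highest and 2 lowest of each complex, and the 5 per direction with the smallest p and the same sign in both mice; of each further list, genes were taken from its 3 smallest p. Copies and overlapping genes, single cell type markers, Cox7c, Ndufa12, Slc25a4, Cox4i1 and Nrf1 were named after their values were seen. Cox4i1 was not matched by the symbol pattern. Of the identifiers left out for a symbol ending in -ps, Ndufb1-ps had 20.2 and 21.2 TPM in the Numb exon 6 libraries and 23.0 and 23.3 TPM in the controls.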

Additional observations from a re-analysis of the deposited data

How the results depend on the processing

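Of the 88 tested members 0 were called in any alternative. The mouse as a block changed no call (0 higher and 0 lower) and left the median of all members at -0.075. On log2(TPM + 1) and log2(TPM + 0.1) the medians were -0.019 and -0.021 for all members, 0.0088 and 0.0090 for complex I, 0.0859 and 0.0869 for complex II, 0.0192 and 0.0194 for complex III, -0.099 and -0.113 for complex IV, and -0.081 and -0.082 for complex V. Without a filter the medians of complexes I and V were -0.058 and -0.125. Leaving out 1 library put them from -0.132 to -0.067 for all members, -0.055 to -0.020 for complex I, 0.0012 to 0.0712 for complex II, -0.133 to -0.025 for complex III, -0.218 to -0.151 for complex IV and -0.176 to -0.067 for complex V. On the same log2(TPM) scales 6 named genes with slightly negative values turned positive: Sdhb 0.0481 and 0.0485, Cyc1 0.0402 and 0.0406, Uqcrc2 0.0192 and 0.0194, Atp5g2 0.0136 and 0.0138, Ndufa7 0.0086 and 0.0087, and Ndufb9 0.0506 and 0.0509. All 8469 genes whose mean log2 CPM was at least 3 had a median of 0.0486 on log2(TPM + 1), against 0.0056 on the count scale. Leaving out 1 library moved 19 of 46 named genes by over 1.5 times with the sign kept and turned the sign of 15, with ranges of -0.012 to 0.352 for Ndufs1, -0.051 to 0.032 for Sdhb, -0.101 to 0.038 for Sdhc, -0.144 to 0.032 for Cyc1, -0.077 to 0.119 for Uqcrfs1, -0.0096 to 0.195 for Uqcrc1, -0.127 to 0.072 for Uqcrc2, -0.330 to 0.050 for Ndufa4, -0.483 to 0.186 for Ndufa4l2, -0.041 to 1.08 for Cox7a2l, -0.166 to 0.076 for Atp5g2, -0.205 to 0.0027 for Atp5g3, -0.093 to 0.0061 for Ndufa7, -0.059 to 0.044 for Ndufb9 and -0.025 to 0.116 for Uqcrh. In those fits the lone library of a group is assumed to vary like the other group. The cause of these turns was not tested. Depth in fragments is not known from coverage-derived counts, so no counting interval is given for the low muscle forms, whose errors are those between libraries.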
